A study of Mus musculus with 12 samples.

Results

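Transcripts of B cells and plasma cells were followed in macrophages sorted from mouse bone marrow. The members are 9 genes chosen by symbol: the immunoglobulin constant regions Ighm and Igkc, the joining chain Jchain, the B cell receptor subunits Cd79a and Cd79b, the B cell surface protein Ms4a1, the B lineage factor Pax5, and the secretory genes Mzb1 and Xbp1. All 9 were found among the 18467 gene symbols of the count table, and 8 of them passed the filter on low counts and were tested. Mzb1 did not pass it.

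The study holds 12 libraries in 4 groups of 3, and its design text gives 3 replicates of each sample type from different mice. That statement does not tell whether niche and general libraries share mice. General macrophages were sorted from marrow by CD11b and F4/80, antigens that many myeloid cells carry. Niche macrophages were defined by the 3 antigens CCR3, CD163 and VCAM1, although the sample titles call this sort general as well, and its antigens were taken to decide the population. The metastatic groups, here called metastatic niche and metastatic general macrophages, came from female Albino B6 mice injected at 8 weeks of age, through the caudal artery, with E0771, a mouse breast cancer cell line. The normal groups came from healthy control mice, whose age is not given in the sources used here. No genetic change is named for any group. Both sorts were taken from live single cells after lysis of red cells, and no antibody against B cells is named in the labels. The libraries of normal niche macrophages carry no number that matches their titles and are called A, B and C. Library totals lay between 13688000 and 30332400 counts, and levels are given as CPM, counts scaled to a common library size with trimmed means of M values (TMM). On that scale 3 counts corresponded to between 0.109 and 0.243 CPM.

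B cells are lymphocytes that carry an immunoglobulin on their surface. The heavy chain constant region encoded by Ighm and the kappa light chain constant region encoded by Igkc are each joined to a rearranged variable segment, and the receptor signals through the pair formed by Cd79a and Cd79b. Pax5 holds cells in the B lineage and is switched off when they become plasma cells, which secrete large amounts of antibody. Jchain then links secreted IgM and IgA into polymers, Mzb1 helps to assemble them in the endoplasmic reticulum, and Xbp1 drives the expansion of that compartment. Bone marrow is the site of B cell development and also holds long-lived plasma cells.

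In the GENCODE M21 annotation (GRCm38, the mm10 build that the submitters' processing notes name), Ighm lies at chr12:113418558-113422730 and Igkc at chr6:70726435-70726966. Jchain lies at chr5:88519809-88527891, Cd79a at chr7:24897381-24902197 and Cd79b at chr11:106311341-106314762. Ms4a1 lies at chr19:11249675-11266241, Xbp1 at chr11:5520659-5525893 and Pax5 at chr4:44524757-44710487. Exons of Pax5 overlap an antisense gene of the table, Gm12462, over 125 bases. Exons of Mzb1 overlap 695 bases of an annotated gene, SPATA24, on the same strand. Whether the counting used strand is not given in the sources used here, so reads of overlapping genes may not have been told apart.

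Upstream sequences are shown for Jchain and Pax5, which were higher in niche macrophages in both marrow states, and for Xbp1, a member that passed no test. Each is the 250 bases before the RefSeq start (GRCm38.p6), at chr5:88527898-88528147 on the minus strand, chr4:44710695-44710944 on the minus strand and chr11:5520391-5520640 on the plus strand. The RefSeq promoter table used here matched 4 of the 9 members by symbol. Capitals mark matches to the E box CANNTG, the letters bound by E proteins of early B cells, which read the same on both strands.
Jchain: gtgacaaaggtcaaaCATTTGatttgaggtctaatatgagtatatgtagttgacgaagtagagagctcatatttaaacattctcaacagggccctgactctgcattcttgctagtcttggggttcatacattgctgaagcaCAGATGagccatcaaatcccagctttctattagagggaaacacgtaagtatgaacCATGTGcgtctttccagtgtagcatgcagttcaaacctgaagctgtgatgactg
Pax5: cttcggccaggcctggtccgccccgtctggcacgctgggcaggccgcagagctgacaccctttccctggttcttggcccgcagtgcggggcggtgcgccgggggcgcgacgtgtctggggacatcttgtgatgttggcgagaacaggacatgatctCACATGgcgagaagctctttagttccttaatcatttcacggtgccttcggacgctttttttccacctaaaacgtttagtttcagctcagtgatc
Xbp1: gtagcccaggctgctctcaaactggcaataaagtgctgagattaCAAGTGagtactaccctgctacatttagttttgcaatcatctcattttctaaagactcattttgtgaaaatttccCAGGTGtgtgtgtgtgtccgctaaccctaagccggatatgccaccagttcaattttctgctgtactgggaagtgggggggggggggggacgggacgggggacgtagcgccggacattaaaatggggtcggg
The Jchain window held 3 such matches, the Xbp1 window 2 and the Pax5 window 1. The motif occurred in 66.2% of all 32851 promoter windows of this length. The PU.1 core GAGGAA and the EBF1 core CCCNNGGG, searched on both strands, had no match in the 3 windows and were found in 23.3% and 11.8% of all windows. The window of Cd79a, the other matched member, is not shown. It held 2 E box matches and 1 PU.1 core match. These matches describe the letters of the windows only.

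**Figure D1:**
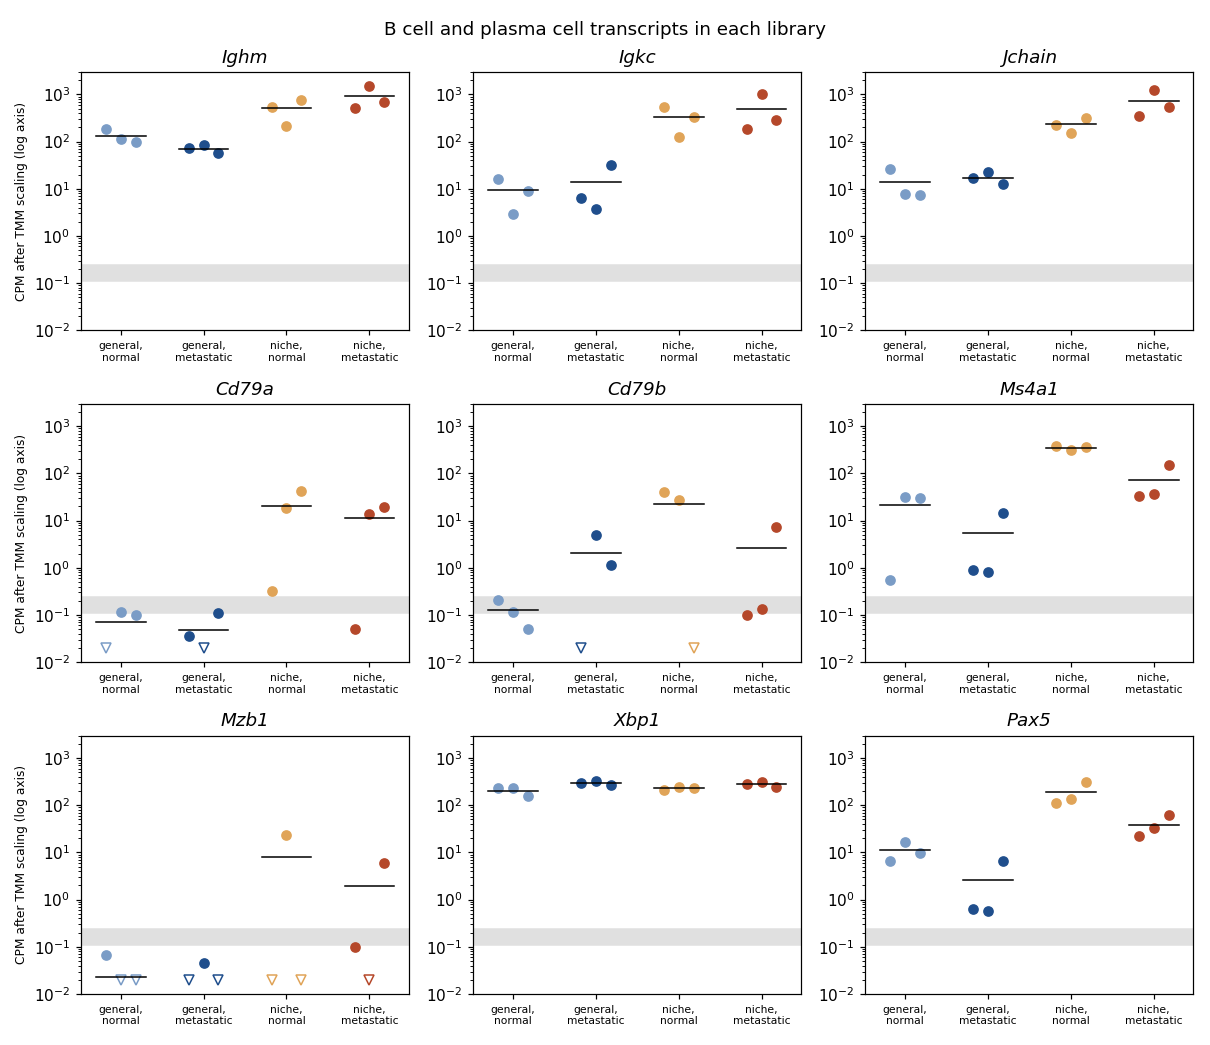
CPM of the 9 genes on a log axis in each of the 12 libraries, by group, with horizontal lines at the group means. The grey band spans 3 counts across libraries, and open triangles stand for libraries with 0 counts. Ighm, Igkc, Jchain and Pax5 were higher in each niche library than in any general library of the same marrow state, whereas Xbp1 overlapped between the populations.

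Among the members, Ighm, Igkc, Jchain and Pax5 separated the populations in both marrow states. They were higher in niche than in general macrophages in normal marrow and again in metastatic marrow, where the libraries are different ones. Each of these 4 passed edgeR's quasi-likelihood test with Benjamini-Hochberg adjustment over 12882 genes. In normal marrow 4 of the 8 tested members were called higher, against 1.5% of all tested genes, and in metastatic marrow 4 of 8, against 0.574%. No member was called lower, against 0.97% and 0.256% of all tested genes. In either direction edgeR called 2.47% and 0.831% of all genes. Without overlap of libraries, 6 and 5 members were higher, against 10% and 8.34% of genes, and 0 were lower, against 8.83% and 8.9%. The 6 include Cd79a, which had at most 3 counts in every general library and passed the filter only through niche libraries, so it adds nothing to that count. In bulk libraries, more cells of a type cannot be told apart from more RNA per cell.

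Ighm, the constant region of the IgM heavy chain, was present in every library. In normal general macrophages it was at 185, 111 and 98.0 CPM in replicates 1 to 3. In normal niche macrophages it was at 544, 217 and 770.5 CPM in libraries A to C. The lowest niche library lay above the highest general one. This was a log2 difference of 1.96 ± 0.43 (SE; adjusted p = 0.0163 by edgeR). In metastatic marrow Ighm was at 72.2, 84.0 and 56.6 CPM in general and at 509, 1542 and 693 CPM in niche macrophages, again without overlap. For metastatic marrow the log2 difference was 3.69 ± 0.46 (SE; adjusted p = 0.000136 by edgeR). The call in normal marrow was lost when general replicate 2 or 3 or niche library C was left out, with edgeR adjusted p-values of 0.0881, 0.0870 and 0.0667, and it was lost with only the 6 libraries compared (edgeR adjusted p = 0.0769). The call in metastatic marrow held without any single library.

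Igkc, the constant region of kappa light chains, was low in general macrophages. It was at 16.2, 2.91 and 8.99 CPM in those from normal marrow and at 6.35, 3.80 and 32.1 CPM in those from metastatic marrow. Niche macrophages had 530.1, 125 and 325 CPM in normal marrow and 182, 1008 and 283 CPM in metastatic marrow. Every niche library lay above every general library. The log2 difference was 5.12 ± 0.87 in normal marrow (SE; adjusted p = 0.00198 by edgeR) and 5.12 ± 0.87 in metastatic marrow (SE; adjusted p = 0.00328 by edgeR). Both calls held without any single library, although the log2 difference in metastatic marrow then ran from 4.05 to 6.60.

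Jchain, the chain that joins IgM and IgA units, followed the same order. General macrophages had 26.6, 7.59 and 7.49 CPM in normal marrow and 16.8, 22.1 and 12.9 CPM in metastatic marrow. Niche macrophages had 221, 156 and 323 CPM in normal marrow and 348, 1250 and 534 CPM in metastatic marrow, where replicate 2 was the highest for Ighm, Igkc and Jchain alike. No niche library overlapped a general one. The log2 differences were 4.07 ± 0.55 (SE; adjusted p = 0.000198 by edgeR) and 5.36 ± 0.58 (SE; adjusted p = 2.16e-05 by edgeR), and both calls held without any single library.

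Counts of Ighm and Igkc were compared within each library, with no test. General libraries held between 1.77 and 38.1 counts of Ighm for each count of Igkc, and niche libraries between 1.03 and 2.79. The lowest general ratio belonged to replicate 3 from metastatic marrow, the general library with the most Igkc, and the other 5 general libraries were above 10. Jchain counts per Ighm count were between 0.0685 and 0.264 in general libraries and between 0.407 and 0.811 in niche libraries, without overlap.

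Pax5, the B lineage transcription factor, was at 6.59, 16.6 and 9.89 CPM in general and at 113, 136 and 318 CPM in normal niche macrophages. The log2 difference was 4.10 ± 0.92 (SE; adjusted p = 0.0182 by edgeR). The metastatic libraries had 0.620, 0.588 and 6.59 CPM in general and 22.3, 32.5 and 62.1 CPM in niche macrophages, a log2 difference of 3.90 ± 0.91 (SE; adjusted p = 0.0474 by edgeR). The groups did not overlap in either state. In normal marrow the call was lost without general replicate 1 or 3 or niche library C, with edgeR adjusted p-values of 0.0996, 0.0824 and 0.0908. In metastatic marrow the call failed in 5 of 6 fits with 1 library removed, with an edgeR adjusted p of up to 0.241, and held without general replicate 3, the general library with the most Pax5. It was also lost there with only the 6 libraries compared (edgeR adjusted p = 0.259). Leaving out a single library moved the log2 difference there between 3.39 and 6.00.

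Ms4a1 encodes CD20, a surface protein of B cells that plasma cells lose. Normal niche macrophages had 373, 313 and 370 CPM, with a smaller spread for its mean than any other member except Xbp1. Normal general macrophages had 0.549, 31.7 and 30.9 CPM. The groups did not overlap, but the log2 difference of 4.06 ± 1.12 did not pass (SE; adjusted p = 0.0641 by edgeR). It passed without the low count filter (edgeR adjusted p = 0.0217) and by DESeq2 (adjusted p = 0.0167). In metastatic marrow the values were 0.912, 0.813 and 14.8 CPM in general and 33.3, 37.3 and 148 CPM in niche macrophages, a log2 difference of 3.72 ± 1.11 (SE; adjusted p = 0.210 by edgeR). Without general replicate 3 it passed (edgeR adjusted p = 0.0128). In fits that left out a single library its log2 difference there ran from 2.67 to 6.40.

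The receptor subunits were found in some niche libraries and at a few counts in others. Cd79a had 0, 2 and 2 counts in normal general macrophages and 4, 379 and 864 counts in niche macrophages. In metastatic marrow it had 1, 0 and 3 counts in general and 1, 310 and 537 counts in niche macrophages. Niche library A and niche metastatic replicate 1 thus sat near the general level. The edgeR adjusted p-values were 0.190 and 0.468, and DESeq2 gave adjusted p-values of 0.000959 and 0.00369. Since Cd79a passed the filter only through niche libraries, these p-values are no support for a difference.

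Cd79b, the partner of Cd79a in the same receptor, was not found in the same libraries throughout. In normal niche macrophages it had 504, 561 and 0 counts, so that library C, with the most Cd79a, held no Cd79b count. The normal general macrophages had 3, 2 and 1 counts. In metastatic marrow it had 0, 108 and 32 counts in general and 2, 3 and 202 counts in niche macrophages. The groups overlapped in both states, and the edgeR adjusted p-values were 0.240 and 1. By DESeq2 the adjusted p was 0.00821 in normal marrow. Only 2 general libraries, both metastatic, reached 10 counts, so Cd79b needed niche libraries to pass the filter. This p is therefore no support for a difference.

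Mzb1, a chaperone of IgM assembly, had 474 counts in niche library B and 159 counts in niche metastatic replicate 3. In the other 10 libraries it had at most 2 counts. It was therefore left out of the tests. Counting members with at least 10 counts, general libraries held between 5 and 7 of the 9 and niche libraries between 6 and 9. The 2 libraries with all 9 were niche library B and niche metastatic replicate 3.

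Xbp1, the plasma cell and stress factor, is also made in many other cells, and did not pass the test between the populations. It was at 227, 231 and 155 CPM in general and at 211, 241 and 234 CPM in normal niche macrophages, a log2 difference of 0.16 ± 0.26 (SE; adjusted p = 0.845 by edgeR). The metastatic libraries had 295, 333 and 263 CPM in general and 283, 305 and 245 CPM in niche macrophages. The log2 difference there was -0.10 ± 0.26 (SE; adjusted p = 1 by edgeR), and 0.15 when scaled by library size only.

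**Figure D2:**
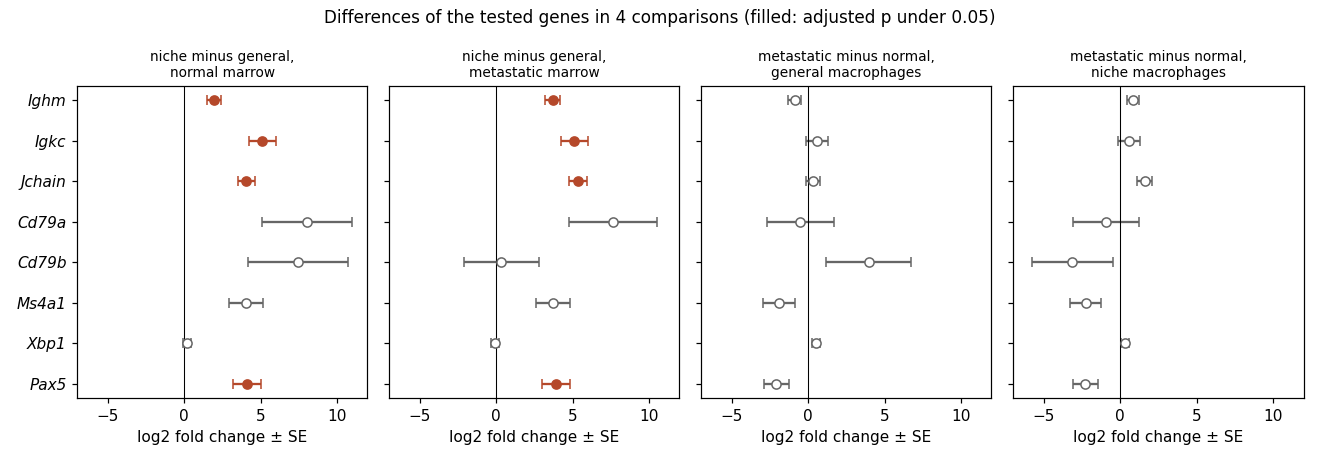
Log2 differences with SE of the 8 tested genes in the 2 comparisons of populations and the 2 comparisons of marrow states. Filled symbols passed an edgeR adjusted p of 0.05: Ighm, Igkc, Jchain and Pax5 in both comparisons of populations, and no gene in the comparisons of marrow states. Cd79a and Cd79b have the widest errors, and their fitted values depend on the prior count.

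Levels were compared between genes as CPM per kilobase of annotated exon. In normal niche macrophages the mean level per kilobase was 614 ± 381 for Igkc, 271 ± 147 for Ighm, 92.6 ± 33.5 for Jchain, 70.4 ± 4.83 for Xbp1, 56.9 ± 5.43 for Ms4a1 and 21.4 ± 12.7 for Pax5 (SD, n = 3 each). Cd79b followed at 16.02 ± 14.6 and Cd79a at 14.3 ± 14.8 (SD, n = 3 each). Igkc and Ighm did not differ beyond their spread, nor did Jchain and Xbp1, nor Pax5, Cd79b and Cd79a. In metastatic niche macrophages the order began again with Igkc (923 ± 846), Ighm (485 ± 292) and Jchain (282 ± 189; SD, n = 3 each), whereas Ms4a1 was at 11.8 ± 10.6 and Pax5 at 4.40 ± 2.33 (SD, n = 3 each). In normal general macrophages Ighm (69.7 ± 25.0) and Xbp1 (62.9 ± 13.2) led, and Igkc was at 17.6 ± 12.5 (SD, n = 3 each).

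Marrow states were then compared within each population, to ask how metastasis bears on these transcripts. In niche macrophages, Jchain was higher and Ms4a1 and Pax5 lower in metastatic marrow, each without overlap of the libraries, but none passed by edgeR. No member was called by edgeR in either population. The share of all tested genes called was 0.0155% in general and 0.00776% in niche macrophages, and unadjusted p-values under 0.05 were found for 2 and 3 members, against 5.12% and 12.7% of genes. DESeq2 called no member in general macrophages, where it called 141 of 12882 genes, and 1 in niche macrophages, Jchain, where it called 954 of 12882.

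The niche values of Jchain, given above, were all higher in metastatic than in normal marrow. The log2 difference was 1.61 ± 0.49 (SE; adjusted p = 0.355 by edgeR and 0.0279 by DESeq2). Ms4a1 had a log2 difference of -2.27 ± 1.04 (SE; adjusted p = 0.388 by edgeR) and Pax5 one of -2.28 ± 0.85 (SE; adjusted p = 0.381 by edgeR). Xbp1 was also higher in each metastatic niche library, with a log2 difference of 0.28 ± 0.26 (SE; adjusted p = 0.764 by edgeR). Without overlap, 2 members were higher and 2 lower, against 5.66% and 7.13% of all tested genes. Ighm and Igkc overlapped between the states, with log2 differences of 0.84 ± 0.42 and 0.59 ± 0.73 (SE; adjusted p = 0.40 and 0.875 by edgeR).

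Jchain, which plasma cells keep, was also set against Ms4a1 and Pax5, which they lose, within each library. The ratio of Jchain to Ms4a1 counts was 0.593, 0.497 and 0.873 in libraries A to C from normal marrow and 10.5, 33.5 and 3.60 in replicates 1 to 3 from metastatic marrow. The ratio of Jchain to Pax5 counts was 1.96, 1.14 and 1.01 in normal and 15.6, 38.4 and 8.61 in metastatic marrow. Neither ratio overlapped between the states in niche macrophages. In general macrophages both did: the ratio to Ms4a1 was 48.5, 0.240 and 0.243 in normal and 18.4, 27.2 and 0.869 in metastatic marrow. These ratios were chosen after the values were seen and were not tested.

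In general macrophages, Pax5 was lower in each metastatic library than in any normal one, although replicate 3 at 6.586 CPM lay just under the lowest normal value of 6.593 CPM. The log2 difference was -2.08 ± 0.85 (SE; adjusted p = 0.944 by edgeR). Ighm was lower without overlap, by a log2 difference of -0.89 ± 0.42, and Xbp1 higher, by 0.54 ± 0.26 (SE; adjusted p = 0.944 each by edgeR). Without overlap, 1 member was higher and 2 lower, against 7.35% and 5.67% of all tested genes. Ms4a1 overlapped, with a log2 difference of -1.93 ± 1.03 (SE; adjusted p = 0.946 by edgeR).

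Whether metastasis acted unequally on the 2 populations was tested as an interaction. No member was called by edgeR, as was no gene at all (0% of those tested), and DESeq2 called no member. An unadjusted p under 0.05 was found for 1 member, Ighm, against 7.89% of genes. Its log2 difference between the effects was 1.73 ± 0.59 (SE; adjusted p = 0.460 by edgeR). For Jchain the log2 difference was 1.29 ± 0.69 (SE; adjusted p = 0.641 by edgeR). For Pax5 and Ms4a1 it was -0.20 ± 1.16 and -0.34 ± 1.41 (SE; adjusted p = 1 each by edgeR).

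Variable segments, which encode the antigen-binding part of each chain, were read from the same table. It lists 41 heavy chain (Ighv), 47 kappa (Igkv) and 2 lambda (Iglv) segments, of which 15 were tested. Segments of a family are close copies, so counts of single segments are uncertain. In general libraries between 1 and 7 segments had at least 10 counts. In niche libraries from normal marrow the numbers were 5, 9 and 11, and in those from metastatic marrow 21, 39 and 35. Over the 3 libraries of metastatic niche macrophages, 68 segments reached 10 counts in at least 1 library, and 6 of them in all 3. In normal marrow these numbers were 20 and 1.

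The variable segments took between 0.000318% and 0.00336% of the counts of general libraries, between 0.0147% and 0.0271% in normal niche macrophages and between 0.0260% and 0.0662% in those from metastatic marrow. A library with more immunoglobulin counts can show more segments at the same mixture. The segment with the most counts took 30.1%, 20.5% and 20.6% of variable counts in niche libraries A to C, and 9.03%, 16.6% and 14.4% in replicates 1 to 3 from metastatic marrow. No segment was called by edgeR in any comparison. The smallest adjusted p was 0.105 for Ighv1-80 between populations in normal marrow. An unadjusted p under 0.05 was found for 5 of 15 segments there, against 19% of all genes, and for 9 between populations in metastatic marrow, against 8.6%. Between marrow states it was found for 6 segments in niche macrophages, against 12.7% of genes, and for 0 in general macrophages, against 5.12%. For the interaction it was found for 2, against 7.89%. No segment reached 10 counts in all 3 libraries of a general group, 1 did so in normal niche macrophages and 6 in metastatic ones. In at least 1 library, 8 and 11 segments reached it in normal and metastatic general macrophages, and 20 and 68 in niche ones. The filter asks for 3 libraries of any groups, so the tested segments probably passed it largely through niche libraries. Which libraries carried each segment was not examined. Their counts of small p-values are therefore no support for a difference.

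**Figure D3:**
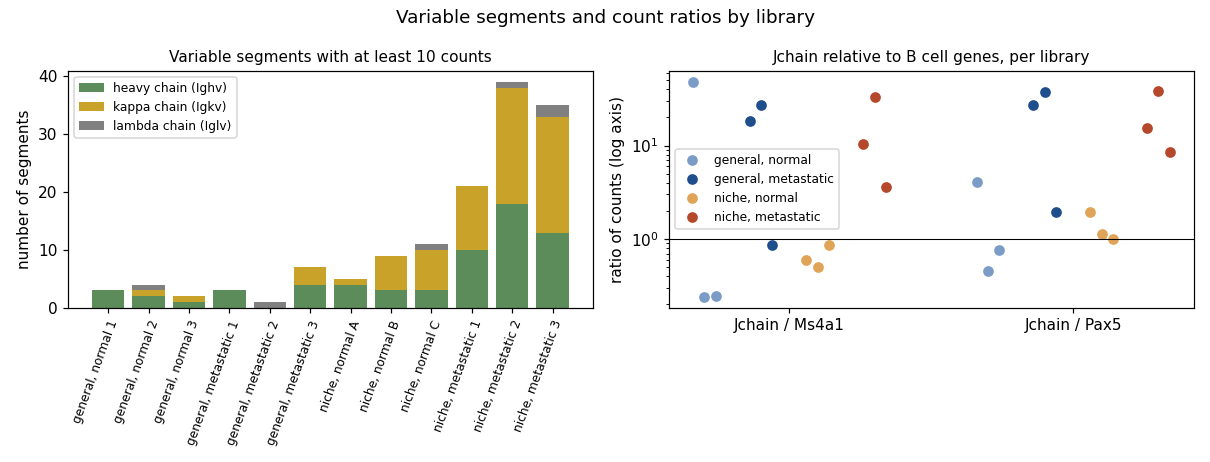
Left, the number of variable segments with at least 10 counts in each library, stacked by chain, which is 21, 39 and 35 in metastatic niche macrophages. Right, the ratio of Jchain to Ms4a1 and to Pax5 counts per library on a log axis, with a line at equal counts. Niche libraries from normal marrow lie between 0.497 and 1.96 and those from metastatic marrow between 3.60 and 38.4.

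Of 10 other constant regions, 7 were tested. Igha, the heavy chain constant region of IgA, was called in both comparisons of populations. It was at 1.30, 1.48 and 11.9 CPM in general and at 59.2, 109 and 151 CPM in normal niche macrophages, a log2 difference of 4.44 ± 1.09 (SE; adjusted p = 0.0344 by edgeR). The metastatic libraries had 1.09, 1.45 and 1.06 CPM in general and 42.9, 87.9 and 9.79 CPM in niche macrophages, a log2 difference of 5.28 ± 1.14 (SE; adjusted p = 0.0269 by edgeR). In normal marrow Ighg2c, Iglc3 and Ighg3 had the next smallest p-values. In metastatic marrow the next smallest belonged to Ighg3 and Iglc3, and Ighg2c had an unadjusted edgeR p of 0.938. These genes rested on single libraries or a pair, all of them niche libraries, through which they passed the filter. Ighg2c had 1076 counts in niche library A and at most 13 in the other 11 libraries. Iglc3 had 490 counts in library A and 319 in niche metastatic replicate 2.

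Among mature B cell genes 18 of 23 were tested, and 1 was called between populations, in normal marrow. Bank1, an adaptor of receptor signalling, was at 0.343, 24.4 and 9.64 CPM in general and at 262, 178 and 153 CPM in normal niche macrophages, a log2 difference of 4.11 ± 0.91 (SE; adjusted p = 0.0169 by edgeR). In metastatic marrow its log2 difference was 2.81 ± 0.86 (SE; adjusted p = 0.232 by edgeR). The interaction for Bank1 had an edgeR adjusted p of 0.846. Pou2af1, a coactivator of immunoglobulin genes, had log2 differences of 3.69 ± 1.11 and 4.78 ± 1.17 (SE; adjusted p = 0.0942 and 0.0660 by edgeR). Ebf1, an early B lineage factor, had a log2 difference of 4.47 ± 1.33 in metastatic marrow (SE; adjusted p = 0.208 by edgeR). The list's median log2 difference was 2.60 in normal and 3.64 in metastatic marrow, against 0.19 and 0.04 over all tested genes. In these comparisons 1 and 3 of its tested genes had at most 3 counts in every library of a group, so the medians are a description only.

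Of 14 early B cell genes, 7 were tested and edgeR called none. A further 5 were below the filter, and Vpreb1 and Vpreb2 were not found by symbol. Rag1, part of the recombinase that joins variable segments, had 0, 0 and 2 counts in general and 910, 467 and 542 counts in normal niche macrophages (edgeR adjusted p = 0.0870). It too passed the filter only through niche libraries, so this p is no support. In metastatic niche macrophages it had 1, 0 and 135 counts. Sox4, a factor of immature cells of several lineages, had log2 differences of 3.26 ± 1.14 and 3.22 ± 1.14 (SE; adjusted p = 0.168 and 0.408 by edgeR). Cecr2 had 7, 39 and 3 counts in general and 1, 764 and 1980 counts in normal niche macrophages (edgeR adjusted p = 0.223). Cd24a was at a log2 difference of -0.53 ± 0.25 in metastatic marrow (SE; adjusted p = 0.591 by edgeR).

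**Figure D4:**
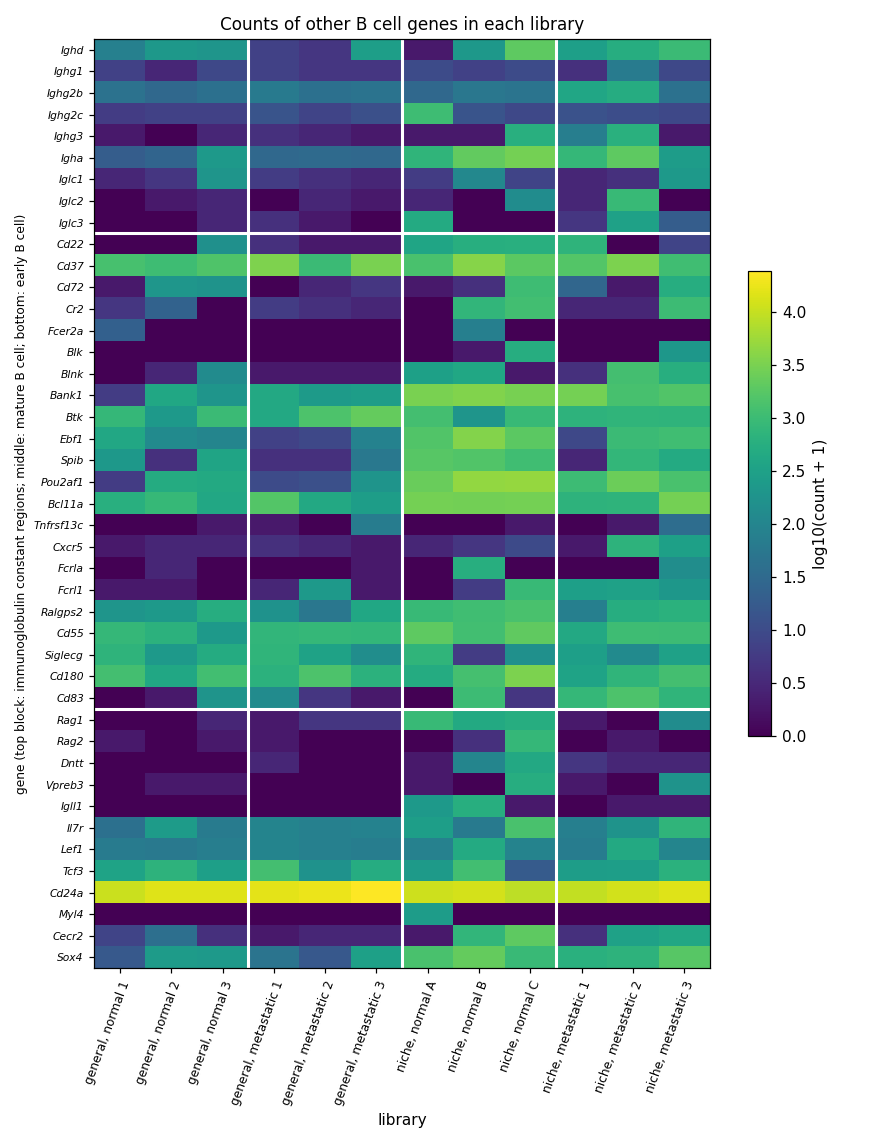
Counts of the other immunoglobulin constant region, mature B cell and early B cell genes in each of the 12 libraries, as log10 of the count plus 1. Bank1 and Pou2af1 had at least 1000 counts in each niche library, whereas Rag1 was at 0 or 1 count in niche metastatic replicates 1 and 2.

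Plasma cell genes other than the members were not called. Of 16 listed, 11 were tested, with a median log2 difference of 0.38 in normal and 0.98 in metastatic marrow. Irf4, a factor of plasma cells and of some myeloid cells, had log2 differences of 1.27 ± 0.63 and 2.71 ± 0.66 between populations (SE; adjusted p = 0.275 and 0.0645 by edgeR). It was at 57.6, 29.4 and 43.8 CPM in normal general macrophages and at 5.36, 9.49 and 8.42 CPM in those from metastatic marrow. The edgeR adjusted p of this comparison was 0.711. Tnfrsf17, the plasma cell receptor BCMA, had 375 counts in niche metastatic replicate 1 and at most 3 elsewhere. Derl3, of the degradation machinery of the endoplasmic reticulum, had 661 counts in niche metastatic replicate 2 and at most 2 elsewhere. Sdc1, the plasma cell surface proteoglycan CD138, had 244, 5 and 13 counts in normal niche macrophages and 8, 503 and 201 in those from metastatic marrow. It had 7, 7 and 8 counts in normal general macrophages and 17, 251 and 86 in those from metastatic marrow.

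The 20 genes of the secretory endoplasmic reticulum, which include chaperones and targets of Xbp1, were all tested and none was called in any comparison by edgeR. Their median log2 difference was 0.77 between populations in normal and 0.20 in metastatic marrow. Herpud1, a stress-induced membrane protein, came closest with a log2 difference of 2.30 ± 0.68 in normal marrow (SE; adjusted p = 0.0893 by edgeR). Hsp90b1 and Calr, both chaperones, had log2 differences of 0.90 ± 0.28 and 0.80 ± 0.27 there (SE; adjusted p = 0.116 and 0.157 by edgeR). Between marrow states the median was 0.52 in general and -0.02 in niche macrophages, against -0.01 and -0.17 over all tested genes. Dnajc3, a co-chaperone, had a log2 difference of 1.00 ± 0.43 in general macrophages (SE; adjusted p = 0.944 by edgeR), and Sec61a1, of the translocation channel, 0.81 ± 0.39 in niche macrophages (SE; adjusted p = 0.395 by edgeR).

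With metastasis, no gene of the 5 lists was called by edgeR in either population. Among mature B cell genes, Ebf1, Pou2af1 and Spib had the smallest p-values in general macrophages, with log2 differences of -3.48 ± 1.27, -2.80 ± 1.07 and -3.84 ± 1.66 (SE; adjusted p = 0.944 each by edgeR). In niche macrophages they were Bcl11a, Cd55 and Cd180, with log2 differences of -1.59 ± 0.66, -1.61 ± 0.69 and -1.51 ± 0.74 (SE; adjusted p = 0.381, 0.381 and 0.395 by edgeR). The list's median was -1.05 in general macrophages, or -0.89 with the 4 genes at a few counts in one group set to their bound, and -1.30 in niche macrophages. Igha had log2 differences of -2.03 ± 0.99 and -1.19 ± 0.96 (SE; adjusted p = 0.944 and 0.683 by edgeR).

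The other list genes among the 3 smallest p-values of a comparison did not pass either. Ell2, an elongation factor that favours secreted immunoglobulin mRNA, had a log2 difference of 1.03 ± 0.81 between populations in normal marrow (SE; adjusted p = 0.538 by edgeR). In metastatic marrow Slamf7, a surface receptor of plasma and myeloid cells, was at 2.14 ± 1.30 and Tnfrsf13b, the receptor TACI, at -1.34 ± 0.73 (SE; adjusted p = 0.781 and 0.670 by edgeR). Spcs1, of the signal peptidase, was at -2.09 ± 1.10 there (SE; adjusted p = 0.639 by edgeR). Between marrow states in general macrophages, Slamf7 was at -2.31 ± 1.31 and Hyou1, a chaperone, at 0.65 ± 0.36 (SE; adjusted p = 0.982 and 0.966 by edgeR). Iglc1 had 2, 4 and 194 counts in normal and 5, 3 and 2 counts in metastatic general macrophages, so that 1 library held nearly all of them. Sec61b, of the translocation channel, had 2, 0 and 1 counts in normal and 18, 6 and 389 counts in metastatic general macrophages. Between marrow states in niche macrophages, Tnfrsf13b was at -1.27 ± 0.73, Sdf2l1 at 1.89 ± 1.06 and Spcs1 at -1.35 ± 1.07 (SE; adjusted p = 0.461, 0.448 and 0.673 by edgeR). Creld2 had 392 counts in niche library B and at most 2 in the other 5 niche libraries.

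The genes whose log2 CPM followed Jchain most closely over the 12 libraries, members and variable segments left out, were Timd4, Hbb-bs, Kcnq1ot1, Tmcc3 and Itgad. Their Pearson correlations with Jchain lay between 0.920 and 0.957. Timd4 encodes a phosphatidylserine receptor of resident macrophages, Hbb-bs a haemoglobin chain and Itgad an integrin of red pulp type macrophages. Those nearest to Cd79a were Cyth2, Cd209f, Ehd3, Cecr2 and Maged1, between 0.917 and 0.980. Cd209f had at most 4 counts in the general libraries and in niche library A and niche metastatic replicate 1, where Cd79a was also near 0. None of the 15 tested variable segments came as close to either gene. The libraries share their sort, so these correlations describe the split between populations as well as the order within them.

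Markers of other cells moved with the population as well. The 10 macrophage markers summed to between 283 and 472 CPM in general and between 5286 and 6166 CPM in normal niche macrophages, with 7 called higher. Of 10 erythroid markers 9 were tested and 4 called higher there, and their sum went from between 32.0 and 131 CPM to between 883 and 1346 CPM. In metastatic marrow 5 macrophage and 3 erythroid markers were called higher, with sums of between 2426 and 4286 CPM and between 704 and 1772 CPM in niche macrophages. Of 8 neutrophil markers 4 were called lower in normal niche macrophages, with sums of between 8637 and 10459 CPM against between 17267 and 18338 CPM in general ones, so neutrophil transcripts were high in both sorts. In metastatic marrow 2 were called lower, with sums of between 10051 and 10822 CPM in niche and between 12356 and 20277 CPM in general macrophages. Of 5 monocyte markers 3 were called lower in each marrow state. Their sums were between 773 and 1332 CPM in niche and between 4235 and 4413 CPM in general macrophages of normal marrow, and between 849 and 1033 CPM and between 3812 and 4919 CPM in metastatic marrow. Stromal and endothelial markers, 3 of 7 tested and none called, summed to between 4.70 and 24.7 CPM in general and between 49.1 and 83.1 CPM in niche macrophages of normal marrow, without overlap. Their sums overlapped in metastatic marrow. Eosinophil markers, none called, overlapped in normal marrow and summed to between 7.74 and 87.4 CPM in niche and between 119 and 225 CPM in general macrophages of metastatic marrow. No T and NK cell marker was called, and their sums overlapped, at between 108 and 179 CPM in general and between 137 and 403 CPM in normal niche macrophages. None of the 4 tested plasmacytoid dendritic cell markers was called, with sums of between 70.8 and 172 CPM in general and between 154 and 368 CPM in niche macrophages of normal marrow. In niche macrophages, where Ms4a1 and Pax5 were lower with metastasis, the plasmacytoid sums were also lower without overlap in metastatic marrow, at between 76.3 and 106 CPM, as were the macrophage sums given above. No marker of either list was called between the marrow states. Klf1, which defines erythroid precursors, was at or under 3 counts in every library except niche library C, where it had 236 counts. The part of these cells in the values of the 9 genes was not tested.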

How the data were processed

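Expected counts per gene symbol were deposited by the authors in 1 table of 18467 symbols and 12 libraries. The values are not normalized, and 73.9% are whole numbers. Per the submitters' processing notes, STAR 2.7.3a, Partek, DESeq2 1.40.2 and R 4.3.1 were used with mm10, with no role stated. The annotation and strandedness are not given in the sources used here. Per the labels' protocols, total RNA was depleted of ribosomal RNA before library preparation.

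Counts were rounded, filtered with filterByExpr, which left 12882 genes, scaled with TMM and fitted in edgeR 4.0.16 under R 4.3.3, where each of the 4 groups had its own mean and all 12 libraries shared the dispersion. Quasi-likelihood F-tests were adjusted by Benjamini-Hochberg over all tested genes, and genes under 0.05 are called. Standard errors were computed from the F statistic, and p-values measure the spread between these libraries. Levels per kilobase used GENCODE M21 exons, to which 18026 symbols matched. Named genes are the 9 members, the 3 list genes with the smallest p-values in each of 4 comparisons, and the 5 genes most correlated with Jchain and with Cd79a; Tnfrsf17, Derl3 and Iglc2 were added after their values were seen. One gene that this rule names is not reported here. The members and lists were chosen with earlier results of these data known.

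Columns were matched to samples by name. Chi-square statistics of library pairs within a group were at least 139 per degree of freedom, so each library was counted once. Alternatives were RLE scaling, library size only (added after the data were seen), immunoglobulin genes left out of totals, no filter, DESeq2 1.42.0, only the libraries compared, a replicate block, and leaving out each library. Depth is between 13688000 and 30332400 counts per library, and floors of 3 counts cover counting error only.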

Additional observations from a re-analysis of the deposited data

How the results depend on the processing

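The 4 members called between populations, Ighm, Igkc, Jchain and Pax5, were also called with RLE scaling, library size only and immunoglobulin genes left out of totals in both marrow states. DESeq2 called 7 of the 8 tested members in normal and 5 in metastatic marrow. Both counts include Cd79a, which passed the filter only through niche libraries. The 7 also include Cd79b, which needed niche libraries to pass it, so neither gene adds support. Of all genes DESeq2 called 1825 and 480 in these comparisons, against 318 and 107 by edgeR. Of all genes it called 141 with metastasis in general macrophages and 954 in niche macrophages, against 2 and 1 by edgeR, and 410 for the interaction, against 0. With metastasis in niche macrophages DESeq2 called 1 member, Jchain, against 0. The cause was not tested. With only the libraries compared, 163 genes were called in normal marrow from 9588 tested. Leaving out one library gave between 2 and 4 members called in normal marrow and between 3 and 5 in metastatic marrow, and 0 in the comparisons of marrow states. Over all genes these fits called between 176 and 402 in normal and between 66 and 83 in metastatic marrow. With metastasis they called between 0 and 66 in niche macrophages, with 66 without library B and 26 without library C. In general macrophages they called 0. For the interaction they called 16 genes without library B, 1 without metastatic general replicate 2, and 0 otherwise. Library size only moved the median log2 fold change of all genes between populations in metastatic marrow from 0.04 to 0.29, and called 96 of 116 genes higher there, against 74 of 107.

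The replicate block, fitted over the 9 libraries with shared numbers, called 3 members between populations in metastatic marrow (Pax5 was lost, adjusted p = 0.295), with 117 of 12345 genes called, and 0 between marrow states in general macrophages, with 3 of 12345 called, where the block changed no call. Correlations of deviations between same-numbered libraries were between -0.00738 and 0.0337. Of 18 comparisons, each with 3 libraries to choose from, 11 were best with the own number. These values do not decide whether equal numbers pair the samples. Cd79b in metastatic marrow turned to -0.11 under the replicate block, and Xbp1 to 0.15 with library size only. The difference of the metastasis effect for Igkc, near 0, turned to 0.051 with RLE scaling, 0.054 with DESeq2 and 0.16 with library size only.

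Signs also turned in fits that left out one library, none of them called. Between populations in metastatic marrow Cd79b ranged from -4.05 to 2.12. With metastasis Igkc ranged from -0.90 to 1.24 in general and from -0.49 to 1.11 in niche macrophages, and Cd79a from -1.63 to 0.20 in niche macrophages. For the difference of the metastasis effect the ranges were -1.08 to 1.60 for Igkc, -1.10 to 0.92 for Cd79a, -1.40 to 2.45 for Ms4a1 and -0.72 to 2.03 for Pax5. Members at a few counts in some libraries (Cd79a, Cd79b, Mzb1) limit what 3 libraries a group can show.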

Other observations

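Constant regions of further heavy chain classes and of lambda light chains varied between libraries of a group. Ighg3, the constant region of IgG3, reached 591 counts in niche library C and 1 in libraries A and B, and was at 73, 613 and 1 counts in metastatic niche replicates 1 to 3. Ighg2b had 401, 514 and 43 counts in niche macrophages from metastatic marrow and between 29 and 62 counts in the other 9 libraries. Iglc2 had 133 counts in niche library C, 909 in niche metastatic replicate 2 and at most 2 elsewhere. Ighd, the constant region of IgD on naive B cells, had 1, 217 and 1975 counts in niche macrophages from normal marrow and 302, 539 and 968 in those from metastatic marrow. In general macrophages it had 79, 214 and 193 counts in normal and 6, 4 and 291 in metastatic marrow. None of these 4 genes was called in any comparison by edgeR, and Iglc2 was not tested.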
